A study of Danio rerio with 9 samples.

Results

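Broad shared core domains are stretches of accessible chromatin that held a peak in every zebrafish (Danio rerio) sperm library of the series. They were wide once the peaks of all libraries were merged, and they were not among the strongest sites. They were chosen by merging the peaks of the 9 deposited lists wherever they overlapped by 1 bp or more, on chromosomes 1 to 25 without chromosome 4. A merged region was kept if it held a peak in all 9 lists, was at least 800 bp wide, and had a median best peak score below 1000 over the libraries. The rule kept 570 regions, 42.9% of the 1329 regions with a peak in all 9 lists on these chromosomes and 0.449% of the 126838 merged regions of the whole series. The shared regions it left out were 708 narrower regions and 51 that were wide enough but had a median score of 1000 or more.

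The libraries came from spermatozoa, 100000 per library, with 5 libraries from males at 7 days after a cryoinjury of the heart and 4 from uninjured control males. Cryoinjury kills part of the heart muscle by freezing, and adult zebrafish regenerate the lost tissue. No strain, age or genotype is given in the labels used here. Nor do they state if a library stands for its own male, so the p-values rest on the spread of these libraries alone, which may be technical. ATAC-seq uses the Tn5 transposase to insert adapters into accessible DNA, and a peak marks a stretch where insertions accumulate. The lists held 15508 to 29622 peaks in injured and 30126 to 45277 peaks in control libraries, and the read depth behind each list is unknown.

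Mature sperm is transcriptionally silent, and in many animals most of its histones are replaced by protamines. Zebrafish sperm is known to keep its genome on nucleosomes instead, so accessible DNA in it lies between or in place of nucleosomes. A narrow peak usually marks a single nucleosome-depleted gap such as a promoter or a factor's binding site. A wide accessible stretch can span several nucleosomes, and it can also arise where copies of a repeat are hard to tell apart in mapping. No genome or annotation of GRCz11, the build of these files, was used here, so the domains are given by position only, without genes or sequence.

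The 570 domains had a median merged width of 1129.5 bp, with quartiles of 943.5 and 1461.5 bp and a highest width of 6085 bp. There were 187 below 1000 bp, 328 from 1000 to below 2000 bp and 55 of 2000 bp or more. The width, the presence in every list and the score chose the members and are given as a description. The narrowest members measured 800, 800 and 801 bp, and the regions just short of the threshold 799, 799 and 798 bp. The highest median scores inside the score threshold were 970, 962 and 955, and the lowest outside it 1009, 1013 and 1057. The median score of the domains was 94 at the median, against 91 in the narrower shared regions. The score is the authors' own, on a scale that no source used here states.

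The label "broad" held for part of the domains within single libraries and for the rest only after merging. In 479 domains (84.0%) at least 1 library had a single peak of 800 bp or more, and in 91 no library did, so that their width came from offset peaks of different libraries. A single peak of that size was present in 5 or more libraries for 175 domains (30.7%) and in all 9 for 35. The widest single peak took up 94.4% of the merged width at the median. Control library 4, which had the longest list, held the widest peak in 153 domains, and injured library 5 in 23.

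Most domains had a common core. In 443 of 570 (77.7%) some bases were covered in all 9 libraries. In 85 the best covered bases were shared by 8 libraries, in 31 by 7, and in 11 by fewer, down to 5. The stretch common to all 9 was 201 bp long at the median, or 17.8% of the domain. At the median, 63.7% of a domain was covered in 5 or more libraries and 8.12% in a single library. The best covered bases lay at 49.4% of the width at the median, with quartiles of 36.1% and 62.4%.

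Coverage declined towards both sides, as the profile along the domains shows. In the outermost bins on the left, each 5% of the width, 22.9% of bases were covered on average in injured and 31.5% in control libraries. Near the middle, at 47.5% of the width, the averages were 73.3% and 79.6%. At the right edge they were 20.8% and 31.4%. The control average lay above the injured average in every bin, while single libraries of the groups overlapped along most of the width. The edges are the outermost base of any library, so low coverage there follows from how the regions were merged.

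**Figure D1:**
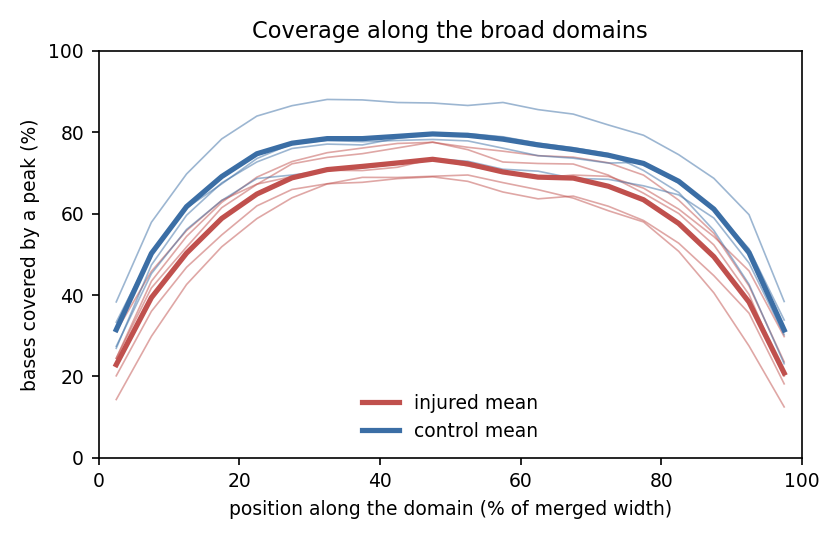
Percentage of bases under a peak (y axis) in 20 bins along the merged width of the domains (x axis, % of width), averaged over the 570 domains. Thin lines are single libraries and thick lines group means. The control mean lies above the injured mean throughout, with control library 4 highest through the middle.

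Within a library a domain was usually a single peak. The mean number of peaks per domain was 1.32, 1.20, 1.14, 1.24 and 1.23 in injured libraries 1 to 5, and 1.27, 1.20, 1.32 and 1.19 in control libraries 1 to 4. The ranges of the groups overlapped, and the difference of -0.0201 peaks was smaller than the spread between libraries (exact two-sided permutation p = 0.659, adjusted p = 0.730). From 12.8% to 27.9% of the domains were split into 2 or more peaks in a given library. Never split in any library were 233 domains (40.9%), whereas 87 were split in 5 or more libraries and 6 in all 9. Between neighbouring peaks of a library inside a domain the uncovered gap was 273 bp at the median over 1196 gaps. The strong regions of 800 bp or more, which were wider with a median of 1408 bp, held 1.14 to 1.25 peaks per library.

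The peaks of injured libraries covered less of the domains than those of control libraries. The covered share is the percentage of a domain's merged width that lies under a library's peaks, and its median over the 570 domains was 61.8%, 62.7%, 50.3%, 61.2% and 54.2% in injured libraries 1 to 5. In control libraries 1 to 4 it was 70.4%, 66.5%, 63.3% and 79.5%. Every control library lay above every injured library, although control library 3 exceeded injured library 2 by little. The means were 58.0% ± 5.50 (injured, SD, n = 5) and 69.9% ± 7.00 (control, SD, n = 4), a difference of -11.9 percentage points (exact two-sided permutation p = 0.00794, the smallest the 126 assignments allow). With adjustment over the 8 values per library compared between the groups, p was 0.0423. Leaving out control library 4 gave -8.71 points and an exact permutation p of 0.0714. The domains were still those built from all 9 lists. The widest peak of a domain lay in control libraries 1 to 4 for 95, 71, 33 and 153 domains. For injured libraries 1 to 5 these counts were 77, 54, 26, 38 and 23. Domains could thus pass the width rule through wide control peaks, which can lower the share of injured libraries. The p-values do not account for this.

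**Figure D2:**
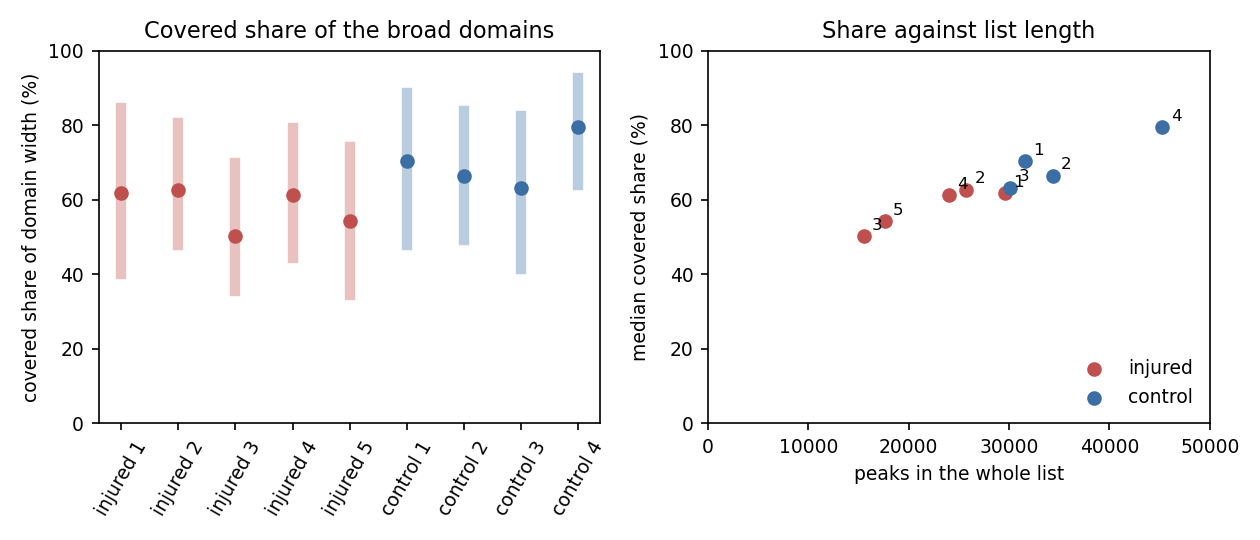
Left, covered share of the domains (y axis, % of merged width) in each library, points being medians and bars the quartiles over 570 domains. Right, the same medians against the number of peaks in the whole list, with replicate numbers. The control medians, 63.3% to 79.5%, lie above the injured medians, 50.3% to 62.7%, and the shortest lists have the lowest medians.

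The length of a list moved with the covered share. The shortest lists, those of injured libraries 3 and 5 with 15508 and 17613 peaks, had the lowest shares, and the longest, that of control library 4 with 45277, had the highest. The lists nearest in length across the groups, injured library 1 with 29622 peaks and control library 3 with 30126, had 61.8% and 63.3%. With every list limited to its 15508 best-ranked peaks the difference was -11.3 points (exact permutation p = 0.0159). The domains and their widths were still those of the full lists, and a domain left without a peak counted as 0. List length was thus made equal in the reading only. Since a deeper library can give wider as well as more peaks, and depth per library is unknown, a difference in depth cannot be told apart from a difference in accessibility.

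The union of all lists sets the merged width, so each library also takes part in the measure it is read by. Building the regions from the other 8 lists and reading the share in the list left out removes its own part in the width. Each library is then read on a different set of regions, with all 4 control lists behind it for an injured library and fewer for a control library. Wide control peaks thus still took part in the width rule, and this reading does not remove that. A region without a peak in the library counts as 0. A peak was present in 83.7% of regions for injured library 3, the lowest, and in 98.2% for control library 4, the highest. The share read this way thus mixes detection with coverage. Injured libraries then had a share of 53.2% ± 7.37 (SD, n = 5) and control libraries of 67.8% ± 7.997 (SD, n = 4), a difference of -14.6 points (exact permutation p = 0.0159). With regions built without control library 4 and read in all libraries, the difference was -11.6 points (exact permutation p = 0.0159).

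Covered bases and the size of peaks leaned the same way but are not separate support. Covered length is the numerator of the covered share, and peak width entered the 800 bp rule through the merged width. The covered length summed over the domains came to 437 ± 40.1 kb (SD, n = 5) among injured and to 510 ± 43.3 kb (SD, n = 4) among control libraries, of 748 kb in all (exact two-sided permutation p = 0.0159, adjusted p = 0.0423). Leaving out control library 4 gave a difference of -52.8 kb in place of -73.1 kb (exact permutation p = 0.0893). Every control library again lay above every injured library, but control library 3 with 472 kb was close to injured library 1 with 469 kb. The widest peak within a domain measured 600.1 ± 53.5 bp (SD, n = 5) among injured and 725 ± 95.4 bp (SD, n = 4) among control libraries at the median, which did not pass adjustment (exact permutation p = 0.0397, adjusted p = 0.0635). A single peak of 800 bp or more was present in 127 to 196 domains of an injured library and in 184 to 323 of a control library. Over whole lists, median peak width gave no such order, with 190 to 281 bp in injured and 206 to 252 bp in control libraries.

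The domains were among the better-ranked peaks of every library, as were the narrower shared regions. A peak in every list was required of both, so their rank is given as a description. On full lists the percentiles of the domains were higher in control libraries. The best peak of a domain stood at the 91.3, 90.8, 85.3, 91.8 and 89.0 percentile of its list's scores in injured libraries 1 to 5, at the median. For control libraries 1 to 4 it stood at the 94.8, 93.9, 92.7 and 95.8 percentile. The groups did not overlap, and the difference was -4.69 percentile points (exact permutation p = 0.0159, adjusted p = 0.0423). The rule used the score as a median over all libraries, with no regard to their group. A percentile within a list also depends on how many weaker peaks the list holds, and the control lists were the longer ones. The test on full lists thus cannot tell a better rank apart from a longer list. No difference in rank is read from it. The narrower regions stood at the 89.5 to 91.6 percentile in injured and at the 90.95 to 95.7 percentile in control libraries. In lists of equal length the difference of -1.77 points was within the spread of the libraries (exact permutation p = 0.159).

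In narrower shared regions the difference between the groups was smaller in value. Their median covered share was 72.7% ± 2.82 (SD, n = 5) among injured and 78.4% ± 5.37 (SD, n = 4) among control libraries (exact two-sided permutation p = 0.0794, adjusted p = 0.106). The share in domains minus that in narrower regions was -14.6 ± 3.62 points (SD, n = 5) and -8.51 ± 3.76 points (SD, n = 4). This difference of -6.12 points had an exact permutation p of 0.0397 and an adjusted p of 0.0635, so a larger effect in the broad domains did not pass adjustment. The classes are parted by merged width, which wide control peaks can raise. A larger difference in the domains can thus follow from the rule. The p-values do not account for this, and no larger effect is read from them.

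Domain by domain, covered length leaned the same way. The mean was lower in injured than in control libraries for 440 of 570 domains (77.2%), against 1164 of all 1617 shared regions on chromosomes 1 to 25 (72.0%). These 1617 include the domains themselves and 288 regions of chromosome 4. Of the 708 narrower regions, 497 were lower (70.2%) and 210 higher. The median difference was -105 bp for the domains against -39.8 bp for all shared regions. The domains are wider by the rule, and these differences are not scaled to width, so they cannot be compared like for like. At an unadjusted exact permutation p of 0.05 or less, 43 domains (7.54%) were lower in injured libraries, where 5.81% of all shared regions were. No domain was higher at that level, where 0.618% of all shared regions were. Of the narrower regions, 36 (5.08%) were lower and 7 higher at that level. Wide control peaks can carry a region past the width rule, which can favour domains that are lower in injured libraries. The counts and percentages of domains are thus a description, and no excess over the other shared regions is read from them. With lists of equal length 31 domains were lower and 3 higher. For this setting, and for those without single libraries below, the share over all shared regions was not computed. These counts thus cannot be set against a background. After Benjamini-Hochberg adjustment 0 of 1617 regions passed (0%), with a lowest adjusted p of 0.721. The 43 domains lay on 17 chromosomes. The number of domains at that level in either direction changed when single libraries were left out. It was 11 without injured library 3, 12 without injured library 5 or control library 4, 16 without control library 1, 17 without injured library 4, and 28 without injured library 2 or control library 3. Without injured library 1 it was 31, and without control library 2 it was 33. Among the domains so counted, 1 was higher in injured libraries without control library 1, 4 without control library 2 and 2 without control library 4. Without a library fewer assignments are possible, so a p of 0.05 or less is harder to reach. How much of the fall from 43 comes from this was not tested.

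First in order among these was a domain of 1159 bp on chromosome 5 (42380435 to 42381593). Its covered length was 285, 480, 496, 583 and 492 bp in injured libraries 1 to 5 and 737, 861, 708 and 806 bp in control libraries 1 to 4 (exact permutation p = 0.00794, adjusted p = 0.721). The groups did not overlap. On chromosome 24 (12447371 to 12449890, 2520 bp) the values were 2268, 1774, 1101, 1603 and 1792 bp against 2431, 2349, 2393 and 2377 bp (exact permutation p = 0.0159, adjusted p = 0.721). There the control libraries lay within a narrow band and injured library 1 came close to it. On chromosome 6 (26258817 to 26260057, 1241 bp) they were 790, 249, 238, 953 and 735 bp against 1160, 962, 1183 and 1179 bp (exact permutation p = 0.0159, adjusted p = 0.721), with injured library 4 only just below the lowest control library.

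Among the domains with more coverage in injured libraries, the first was 1111 bp wide and lay on chromosome 10 (31274498 to 31275608). It had 620, 510, 778, 502 and 953 bp in injured libraries against 177, 623, 233 and 203 bp in control libraries (exact two-sided permutation p = 0.0714, adjusted p = 0.744). Control library 2 fell among the injured libraries. Next came chromosome 5 (7487611 to 7488555), with means of 553 and 292.5 bp, and chromosome 5 (43191072 to 43191924), with 762 and 656 bp, which had exact permutation p of 0.0794 and 0.0873.

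The widest domain, 6085 bp on chromosome 10 (12097551 to 12103635), was a single unbroken peak in injured library 1. In the other libraries it was broken into 2 to 4 peaks, covering 3495, 1913, 5201 and 4276 bp in injured libraries 2 to 5 and 5728, 4288, 5869 and 5441 bp in control libraries 1 to 4. With 3.00 peaks per library it also shared the highest mean number of peaks with a domain on chromosome 24 (12550539 to 12554819, 4281 bp). The domain on chromosome 16 (18325769 to 18330842, 5074 bp) varied widely between libraries. Its covered length was 5064, 1163, 476, 3676 and 2369 bp in injured and 4926, 1601, 4850 and 4909 bp in control libraries. Injured library 1 thus resembled control libraries 1, 3 and 4, and control library 2 lay among the other injured libraries (exact permutation p = 0.238).

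A domain of 5011 bp on chromosome 5 (831716 to 836726) was evenly open, with 3876 to 4889 bp covered in injured and 4522 to 4962 bp in control libraries, and 3677 bp common to all 9. A domain of 4290 bp on chromosome 10 (15178372 to 15182661) had no base common to all 9. Its covered length ran from 282 bp in injured library 3 to 3755 bp in control library 4, with means of 1689 bp in injured and 3258 bp in control libraries (exact two-sided permutation p = 0.0317, adjusted p = 0.721).

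At the extremes of the covered share lay evenly filled and sparsely filled domains. Most evenly filled were domains on chromosome 19 (455285 to 456496), chromosome 16 (15670365 to 15671671) and chromosome 11 (3024743 to 3026497), with mean shares of 97.8%, 97.0% and 96.4% over the 9 libraries. All 9 libraries had a peak of 800 bp or more in each of them. Least filled were domains on chromosome 1 (639489 to 641491), chromosome 11 (42915289 to 42917392) and chromosome 7 (5447389 to 5448752), with 28.4%, 30.0% and 30.2%. The domain on chromosome 1 owed its width to injured library 2, where a peak of 2000 bp covered 99.9% of it, while the other libraries covered 8.14% to 36.3%. Those on chromosomes 11 and 7 held no peak of 800 bp in any library.

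Libraries resembled each other to varying degrees in how much of each domain they covered. Over the 570 domains, Spearman's rho of the covered share averaged 0.340 for the 16 pairs of libraries within a group and 0.339 for the 20 pairs between groups. The highest was 0.519, for injured libraries 1 and 5, and the lowest 0.113, for injured library 3 and control library 1. The points share the merged widths, and injured library 3 has the shortest list.

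A part of the domains lay in tight groups. The nearest other domain was 316 kb away at the median, within 50 kb for 194 domains (34.0%) and within 10 kb for 119 (20.9%). Another domain lay within 1 kb for 37 domains. For the narrower shared regions, which are more numerous, the nearest of their own kind was 363 kb away at the median. It was within 50 kb for 186 (26.3%) and within 10 kb for 113 (15.96%). Linking domains no more than 50 kb apart left 376 (66.0%) single and put 115 into 47 groups of 2 to 4. The remaining 79 (13.9%) lay in 9 groups of 5 to 23 domains. The distance of 50 kb and the size of 5 were chosen with the data in view, so the groups are described without a test.

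The largest group held 23 domains in 150 kb of chromosome 24 (12405306 to 12554819), with up to 18 of them inside 100 kb. Its domains covered 23.4% of the extent, with a median gap of 3439 bp, and 10 narrower and 2 strong shared regions lay between them. On chromosome 12 (14344419 to 14442450) 11 domains lay in 98.0 kb, with 5 narrower shared regions. On chromosome 10 (12053902 to 12126804) 10 domains lay in 72.9 kb. These included the widest of all and were packed closest, with a median gap of 454 bp. Chromosome 16 carried a group of 7 (36382995 to 36460750) and another of 6 (18181296 to 18243748). There were 6 domains each on chromosome 6 (57803379 to 57849280) and chromosome 7 (562372 to 710425), and 5 each at 2 places on chromosome 5 (815000 to 836726 and 53299658 to 53362091). The group at 815000 was the densest by bases, with 57.2% of 21.7 kb inside domains.

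**Figure D3:**
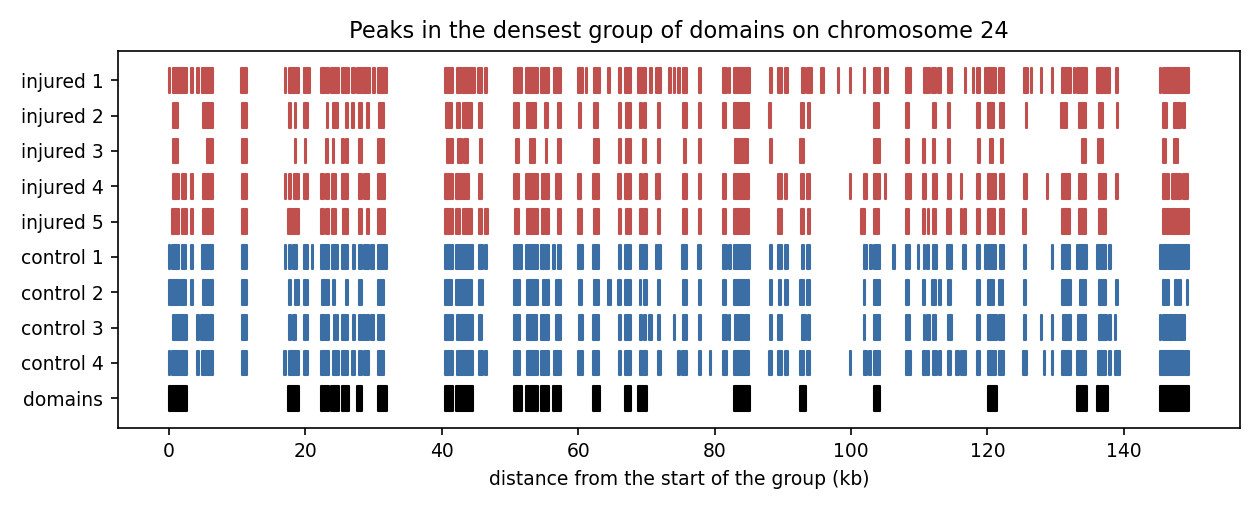
Peaks of each library (rows) along the largest group of domains, on chromosome 24, in kb from its start, with the 23 domains in black. The libraries have 42 to 82 peaks over this extent, and each domain holds a peak in all of them, as the rule requires.

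Libraries differed widely in how much of these groups they covered, and the libraries of both treatments overlapped. In the group on chromosome 12 peaks covered 42.7%, 19.1%, 10.02%, 29.2% and 24.4% of the whole extent in injured libraries 1 to 5 and 37.9%, 21.7%, 35.4% and 38.5% in control libraries 1 to 4. In the group on chromosome 24 they covered 37.1%, 19.2%, 13.9%, 27.4% and 25.7% against 32.6%, 24.2%, 27.8% and 33.6%. In both, injured library 1 was the highest and injured library 3 the lowest of all 9, and the ranges of the groups overlapped. Injured library 1 was the highest in 5 of the 9 groups and injured library 3 the lowest in 6. In none of the 9 were all injured libraries below all control libraries.

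The group of 7 on chromosome 16 had another order. Its extent was covered to 7.11%, 10.9%, 7.44%, 10.2% and 5.82% in injured libraries 1 to 5 and to 24.1%, 20.2%, 8.77% and 15.0% in control libraries 1 to 4. Control library 3 lay among the injured libraries there, and injured library 1, the highest in 5 other groups, was among the lowest.

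**Figure D4:**
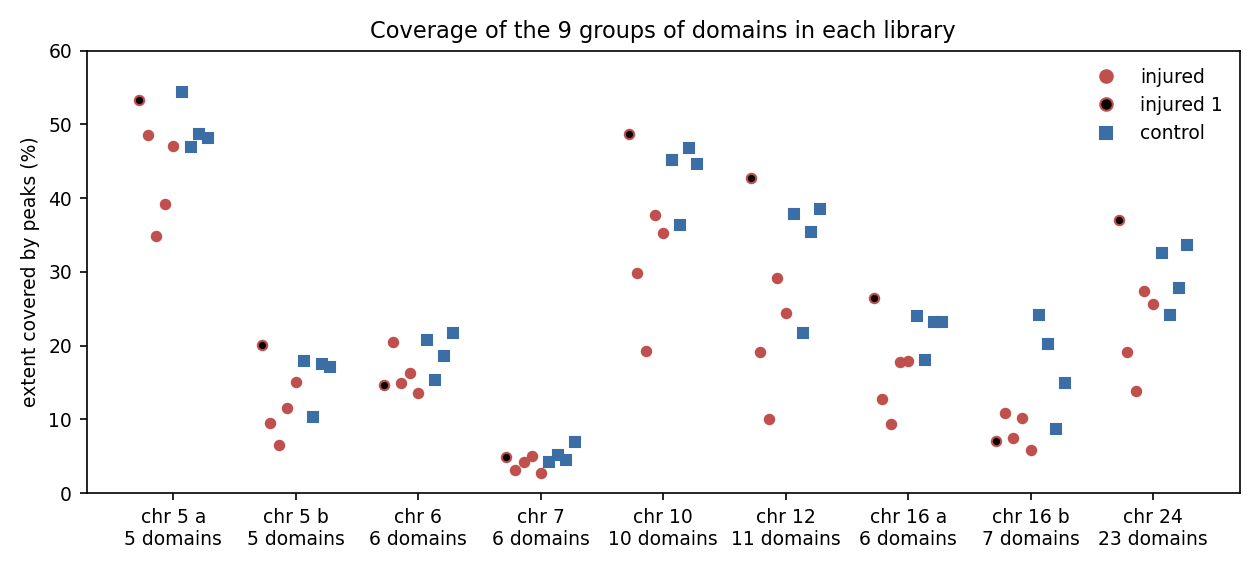
Percentage of the extent of each of the 9 groups of domains that lies under peaks (y axis) in each library, the groups being named by chromosome and number of domains in order of position. Injured library 1, with a black centre, is the highest point in 5 groups, and the libraries of both treatments overlap in every group.

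Domains in these groups had higher covered shares than single ones in 7 of 9 libraries, again as a description. Their median width was 1305 bp and their mean covered share 74.7% at the median, against 1106.5 bp and 58.6% for the 376 single domains. The median of their scores was 205 against 78. Within groups the median covered share ranged from 48.3% in injured library 3 to 92.4% in control library 1, and among single domains from 47.5% in injured library 5 to 76.5% in control library 4. The order was reversed in injured library 2, with 58.8% in groups and 63.9% in single domains, and in injured library 3, with 48.3% and 49.9%. Leaving out the 79 grouped domains, the difference in covered share between injured and control libraries was -11.7 points (exact permutation p = 0.0317).

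Chromosomes carried 9 to 50 domains each. Chromosome 16 had the most with 50, followed by chromosomes 7, 5 and 24 with 44, 43 and 40, and chromosome 18 had the fewest. Per 1000 peaks of all lists, chromosome 24 came first with 5.86 domains and chromosome 18 last with 1.58. Of the 40 domains on chromosome 24, 17 remain outside the group of 23, or 0.403 per Mb, and on chromosome 16 37 remain, or 0.669 per Mb. The share of all shared regions that were broad domains ran from 25.7% on chromosome 18 to 52.9% on chromosome 10. Chromosome ends held a smaller share of the domains than of the other shared regions. Within 500 kb of the first base or of the last peak of a chromosome lay 22 domains (3.86%), against 38 narrower regions (5.37%) and 13 of the 51 strong regions (25.5%).

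Broad domains were also read in libraries that took no part in choosing them. For each library, regions and classes were rebuilt from the other 8 lists, giving 555 to 667 broad and 738 to 953 narrower regions with median scores of 88.5 to 97.75 and 86.5 to 90. The narrower class has no upper limit of the score. In the 300 bp around the middle of a region, the library left out had a peak in 84.7% ± 6.91 (SD, n = 9) of broad and 90.3% ± 7.07 (SD, n = 9) of narrower regions. Broad regions were lower in 9 of 9 libraries, with a mean difference of -5.60 points (exact two-sided sign-flip permutation p = 0.00391, the smallest possible). Width enters this reading, since 300 bp take in a larger part of a narrower region than of a broad one. In the full lists the median widths were 534 bp for narrower regions and 1129.5 bp for domains. The test thus cannot tell lower detection apart from width. Limiting the narrower class to scores below 1000 left -5.09 points (exact permutation p = 0.00391). With the 300 bp placed on the best covered bases of the other 8 lists instead of the middle, a peak was present in 89.3% ± 5.67 of broad (SD, n = 9) and 90.2% ± 7.04 of narrower regions (SD, n = 9). That difference of -0.849 points was within the spread of the libraries (exact permutation p = 0.168). Read over the whole region the order turned, with 93.0% of broad and 90.5% of narrower regions detected (difference 2.46 points, exact permutation p = 0.0156). In that reading width enters the other way, since a broad region offers more bases in which to meet a peak. The lower detection was thus called at the geometric middle of a domain and not on its best covered stretch. On that stretch broad regions were higher in injured library 3, with 78.0% against 74.8%, and lower in every other library. An absence of lower detection there is not read from that test. The 9 values share the libraries from which the regions were built and are not independent.

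**Figure D5:**
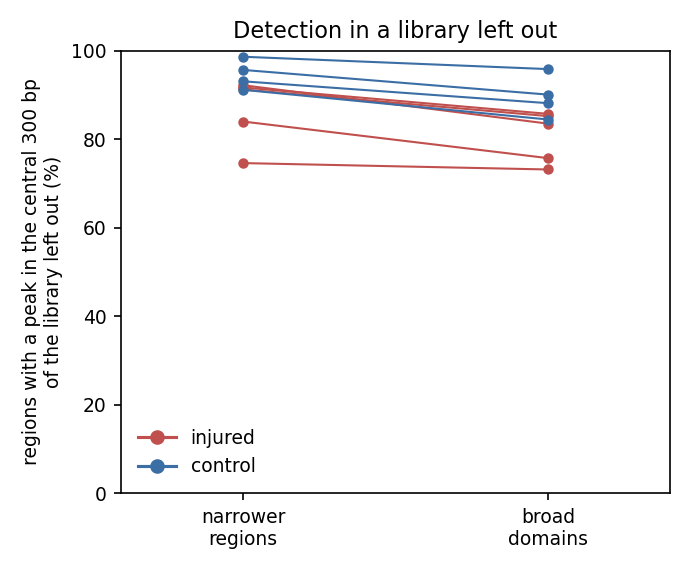
Percentage of regions with a peak in the 300 bp around their middle in the library left out of building them (y axis), for narrower regions and broad domains, with a line for each library. Every line is lower at broad domains, and the libraries range from 73.2% to 95.9% for broad domains.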

How the data were processed

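The authors' deposited peak lists, 1 per library, give positions and a peak score. Per the submitters' processing notes the build was GRCz11, and the tools named, without order or settings, include Bowtie2 for alignment and MACS2 for peaks beside Trim Galore, Picard, SAMtools, bedtools, deepTools, DiffBind, ChIPseeker and DESeq2. Any shift of reads for Tn5, the handling of duplicates and the threshold for peaks are, in the sources used here, not given. Scores in the deposited lists started at 13, and peaks within a list did not overlap. Per the labels, libraries retained 4.6 to 29 M reads, without a value per library.

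Members and lists were chosen with earlier results of these data known. Peaks were merged in Python 3.11.15 with pandas 2.3.3 and numpy 2.4.6. Group comparisons used exact permutation over all 126 assignments of libraries, with Benjamini-Hochberg adjustment over 8 values per library. Of these, 4 were added after the first results (covered length, widest peak, and the share in narrower regions by itself and as a difference). Per-region tests of covered length ran over 1617 shared regions and were tested on simulated data. Regions named are the extremes of width, peaks per library, covered share and group difference, the neighbours of the thresholds and the densest 100 kb. Alternatives were other merging, width and score rules, equal-length lists (15508 peaks each, ties by width and position), other summaries, leaving out libraries, and a replicate block. In comparisons between the groups, equal-length lists were read on the domains built from the full lists. The reference gene table was of another build and was not used.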

Additional observations from a re-analysis of the deposited data

Results flagged for a closer look

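Of 48 sets of values per library and group that were examined, 2 had a library set apart from the rest, where chance would give about 2.4. Both were control library 2 in a group of domains. Its peaks covered 10.3% of the group at 53299658 on chromosome 5, below the next control library with 17.1%, a gap of 0.904 of the range. In the group at 18181296 on chromosome 16 it covered 18.1%, the next having 23.2%, a gap of 0.845 of the range.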

How the results depend on the processing

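The number of domains stayed between 383 (width of 1000 bp or more) and 817 (600 bp or more) under all alternatives, 428 in equal-length lists, and 555 to 667 without any 1 library. For that count the domains were built anew from the remaining lists. In comparisons of the groups without any 1 library, only the values of that library were left out. The difference in covered share kept its sign throughout, from -14.1 to -8.71 points without any 1 library, the call being lost without control library 4. The difference in rank percentile ran from -5.24 to -3.60 without any 1 library, with the call lost without control library 4 (-4.21, exact permutation p = 0.0536), and was -1.77 at equal length (exact permutation p = 0.159). The difference in peaks per domain, never called, turned to 0.0472 at equal length (exact permutation p = 0.127), to 0.00175 without injured library 3 and to 0.00608 without control library 3, its range being -0.0430 to 0.00608. Domains differing in covered length numbered 11 to 33 without any 1 library, with no share over all shared regions computed beside these counts. Fewer assignments are possible in those tests, so a p of 0.05 or less is harder to reach. The difference in detection of broad regions in a library left out was -6.12 to -5.21 points without any 1 library and -4.07 at equal length. It was -0.849 with the window on the best covered bases (exact permutation p = 0.168), and -0.396 there against narrower regions of 300 bp or more with scores below 1000 (exact permutation p = 0.453). Over the whole region, where width enters in favour of broad regions, the difference was 2.46. The window on the best covered bases was chosen with the results in view. The cause of these changes was not tested where none is named. The replicate block had 4 pairs and a smallest possible exact permutation p of 0.125, so nothing could be called in it. Its differences were -10.9 points in covered share and -4.53 in percentile, and its count of 0 domains was fixed in advance. Deviations of same-numbered libraries correlated at -0.131 to 0.101, so the numbers were not taken as pairs. Unknown read depth limits every comparison of the groups. The length of the lists limits the comparison of rank percentile. The width rule limits those of covered share, covered length and peak width.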
